A study of Mus musculus with 8 samples.

Results

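Fezf2, Ldb2, Sox5, Tbr1, Tle4 and Foxp2 are 6 regulators of gene expression that mark or specify the deep layers of the cerebral cortex. They were chosen by symbol, and all 6 were present among the 14166 genes counted. Their levels were followed through the nuclei of the dorsal telencephalon, from which the cortex grows, at E15.5 in 4 wildtype and 4 Pantr2 knockout mouse samples. All 8 samples were of the strain C57BL/6J, and the knockout is written Pantr2-/- in the labels, which do not say how the allele was made or whether a sample pooled embryos. Pantr2 encodes a long noncoding RNA, and its counts are not analysed here, so genotype rests on the labels.

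Cortical excitatory neurons are born in order, deep layers before upper layers, and settle into classes with separate targets. Fezf2 is the zinc-finger factor that specifies neurons of layer 5 projecting to brainstem and spinal cord, and Tbr1 is the T-box factor of corticothalamic neurons in layer 6, where it restrains Fezf2. Sox5, of the SRY-related HMG-box family, controls the order in which deep-layer classes mature. Foxp2 is a forkhead factor of layer 6. Ldb2 and Tle4 bind no specific DNA sequence themselves: Ldb2 bridges LIM-domain proteins, and Tle4 is a Groucho-family corepressor.

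Transcripts of single nuclei were captured in droplets and counted by unique molecular identifiers (UMIs), 1 for each molecule. There were 33781 wildtype and 33538 knockout nuclei, with 20446698 to 34083796 UMIs and a median of 2570 to 2905 UMIs per nucleus in each sample, and every nucleus held at least 1496 UMIs. Of 66806 distinct barcode sequences, 510 occurred in more than 1 sample. The authors' 7 numbered clusters were used as deposited. Marker levels are given here as means over all 8 samples, wildtype and knockout. Cux1, Cux2 and Pou3f1 peaked in cluster 1, which is upper-layer-like by these markers. The other upper-layer markers counted did not: Rorb peaked in cluster 2 (570 per 1000000 UMIs, against 120 in cluster 1) and Lhx2 in cluster 5 (256 against 171). Clusters 2 and 3 are both deep-layer-like, and Sox5 was high in both. Cluster 2 was told apart by its levels of Ldb2, Fezf2 and Bcl11b, and cluster 3 by those of Tle4, Foxp2, Tbr1 and Hs3st4. The 6 genes thus took part in that naming, and their cluster pattern is a description. Cluster 4 is apical progenitor-like, cluster 5 intermediate progenitor-like, and clusters 6 and 7 had too few markers for a name. Not all markers went with these names. The intermediate progenitor marker Insm1 peaked in cluster 1 (77.4 per 1000000 UMIs, against 69.7 in cluster 5). The deep-layer marker Crym peaked in cluster 7 (63.1, against 18.6 in cluster 2 and 21.8 in cluster 3). The cluster names were rebuilt and may differ from the study's. The blood transcript Hbb-bs, which none of these cells should make, averaged between 209 and 263 per 1000000 UMIs in every cluster, a gauge of free RNA in the droplets.

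RefSeq promoter entries (GRCm38.p6) were found for Fezf2, Sox5, Tbr1 and Tle4. The 250 bases before the start of the entry are shown for Tbr1, Sox5 and Fezf2, since these are the genes with an entry that rose in at least 1 comparison below. Capitals mark matches, on either strand, to a homeodomain core (TAATTA), a SOX site (ACAATG), a T-box site (TCACACCT) or a forkhead site (TGTTTAC). These letters were chosen after the sequences had been seen.
Tbr1: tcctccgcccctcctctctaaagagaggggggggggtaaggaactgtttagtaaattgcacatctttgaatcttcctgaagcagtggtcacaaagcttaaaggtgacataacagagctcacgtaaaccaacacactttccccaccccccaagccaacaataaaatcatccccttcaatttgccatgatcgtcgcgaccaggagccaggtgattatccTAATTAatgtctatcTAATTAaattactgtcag
Sox5: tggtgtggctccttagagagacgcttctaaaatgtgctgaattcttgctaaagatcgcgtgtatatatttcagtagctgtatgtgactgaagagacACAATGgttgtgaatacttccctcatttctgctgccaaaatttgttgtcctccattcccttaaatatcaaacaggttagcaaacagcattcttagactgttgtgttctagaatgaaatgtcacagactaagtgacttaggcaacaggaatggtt
Fezf2: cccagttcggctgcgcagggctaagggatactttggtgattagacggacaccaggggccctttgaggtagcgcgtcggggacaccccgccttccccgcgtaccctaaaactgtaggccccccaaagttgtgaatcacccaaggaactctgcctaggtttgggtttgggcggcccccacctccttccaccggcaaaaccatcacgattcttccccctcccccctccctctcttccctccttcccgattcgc
The Tbr1 window lies at chr2:61804203-61804452 on the plus strand, the Sox5 window at chr6:143947107-143947356 on the minus strand and the Fezf2 window at chr14:12345866-12346115 on the minus strand. All 3 windows lie inside the GENCODE M21 spans of their genes, so these entries start within the gene and not at its outer end. For Sox5 that outer end is at 144781977, far from the window. Tbr1 held 2 homeodomain matches, and 4.84% of 32851 mouse promoter windows of this length held at least 1. Sox5 held 1 SOX match, as did 10.7% of the windows. The T-box letters (1.12% of windows) and the forkhead letters (3.17%) were in none of the 3 windows, and the marked letters did not overlap each other. GC content was 45.2% in the Tbr1 window, 39.6% in the Sox5 window and 61.2% in the Fezf2 window, against a median of 52.4% over all windows. A match in these letters is a description and not a measured site.

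On GRCm38 (GENCODE M21) Fezf2 spans chromosome 14 from 12342094 to 12348189 on the minus strand, and Tbr1 spans chromosome 2 from 61802930 to 61814114 on the plus strand. The other 4 genes are far longer: Ldb2 spans 327549 bases on chromosome 5, Tle4 149902 bases on chromosome 19, Foxp2 540629 bases on chromosome 6 and Sox5 953553 bases on chromosome 6. Ldb2 overlaps 11 other annotated genes, Sox5 7 and Foxp2 1, and none of these has a row in the deposited table. Whether UMIs from those overlapping genes entered the counts was not tested. Whether reads from introns were counted is not given in the sources used here, so levels are compared within a gene and not between genes.

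The genes fell into 2 patterns over the wildtype clusters. Fezf2 and Ldb2 peaked in cluster 2, while Tle4, Foxp2, Tbr1 and Sox5 peaked in cluster 3. In this description levels are raw CPM, the UMIs of a gene per 1000000 UMIs of a sample and cluster with no further scaling, as mean ± SD over 4 wildtype samples, and no test applies because the clusters were built from the same nuclei.

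Fezf2 stood at 119, 132, 171 and 123 raw CPM in cluster 2 of wildtype samples 1 to 4 (136 ± 23.8, SD, n = 4). Next came cluster 7 at 91.4 ± 8.08 and cluster 3 at 89.6 ± 7.20, which overlapped. Clusters 5, 4 and 1 lay at 54.7, 49.8 and 48.0 with overlapping samples, and cluster 6 was lowest at 40.8. Fezf2 was thus spread widely: cluster 2 held 31.7% of its wildtype UMIs and cluster 3 held 23.8%.

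Ldb2 was more concentrated, with 1401, 1585, 1519 and 1535 raw CPM in cluster 2 (1510 ± 77.8, SD, n = 4) and 52.4% of its UMIs there. Cluster 3 held 535 ± 32.5, cluster 1 held 337 ± 29.8, and the 2 progenitor-like clusters were lowest at 119 in cluster 4 and 86.5 in cluster 5. No sample of another cluster reached the lowest sample of cluster 2.

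Sox5 was high in both deep-layer-like clusters, at 5004 ± 161 raw CPM in cluster 3 and 4653 ± 423 in cluster 2 (SD, n = 4), which overlapped in the wildtype. Levels elsewhere ran from 1377 in cluster 1 down to 725 in cluster 4. In the knockout samples the order was the other way round, with 7099 ± 689 in cluster 2 and 5681 ± 396 in cluster 3 and no overlap between the clusters.

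Tle4 was the most restricted. Cluster 3 held 3162 ± 203 raw CPM (SD, n = 4) and 69.5% of all wildtype Tle4 UMIs, against 578 ± 88.7 in cluster 2 and 206 ± 21.4 in cluster 1, where samples overlapped those of cluster 6 (207). Cluster 4, the apical progenitor-like cluster, was the third, with 437 ± 31.1.

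Foxp2 also peaked in cluster 3, at 1079 ± 71.7 raw CPM (SD, n = 4), but its next clusters were the progenitor-like ones: cluster 5 at 555 ± 60.1 and cluster 4 at 389 ± 14.97. Cluster 2 followed at 358 ± 37.2, overlapping cluster 4, and cluster 1 held 91.3. The unnamed clusters 7 and 6 lay at 36.0 and 28.1, with samples that overlapped.

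Tbr1 gave few UMIs and varied least between clusters. It stood at 77.5, 89.4, 88.4 and 94.1 raw CPM in cluster 3 (87.4 ± 7.0, SD, n = 4). Clusters 5, 2, 1 and 6 lay at 56.6, 55.0, 52.4 and 49.2, each overlapping the next, and clusters 7 and 4 at 29.8 and 28.9.

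A mean over nuclei moved 2 of these 42 wildtype cluster means by more than the SD between samples, and leaving out the nuclei with the highest doublet scores moved 5. All were of Ldb2 or Sox5 in clusters 4, 5 and 6. Ldb2 in cluster 5 moved most, from 86.5 to 67.5 raw CPM as a mean over nuclei and to 45.4 without the highest doublet scores.

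**Figure D1:**
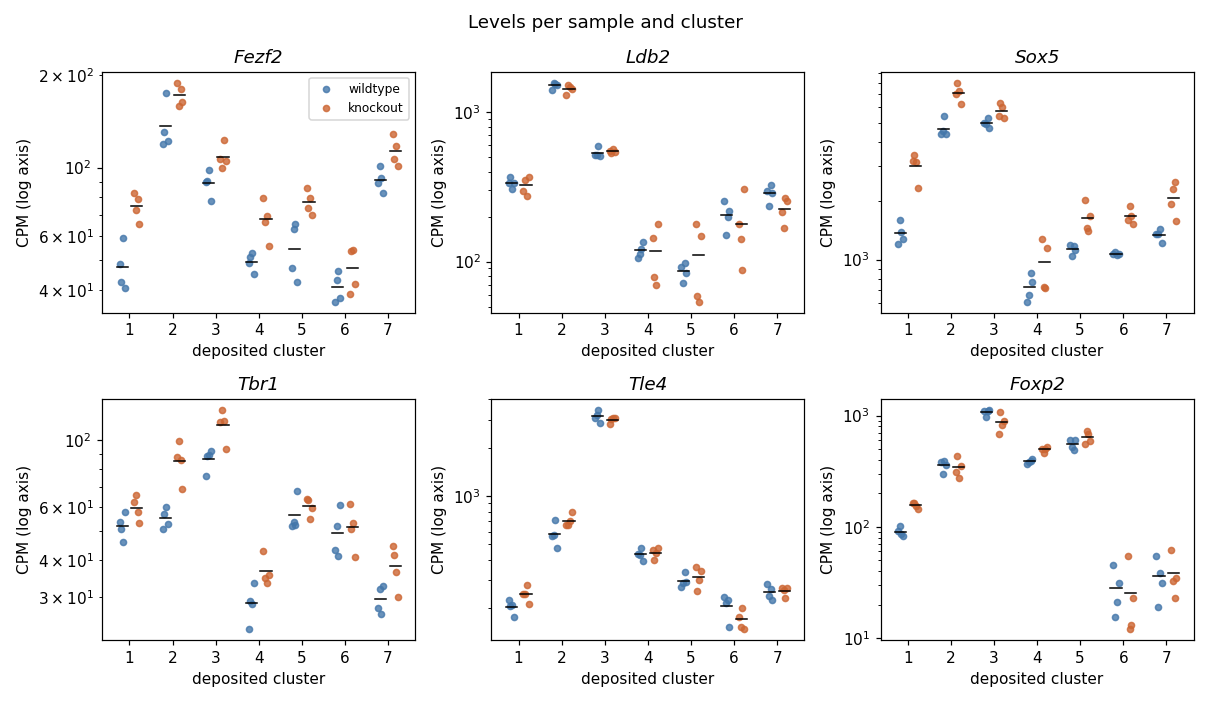
Level of each gene per sample in the 7 deposited clusters, as CPM on a log axis (TMM-scaled, blue wildtype, orange knockout, points are samples, black lines are means of 4 samples). Fezf2 and Ldb2 are highest in cluster 2, Tle4, Foxp2 and Tbr1 in cluster 3, and the orange Sox5 points lie above all blue points in every cluster but cluster 4.

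The genotype comparison asked whether the loss of Pantr2 goes with other levels of these regulators. UMIs were summed per sample and compared with edgeR's quasi-likelihood test, and a gene is said to be called, or to have risen or fallen, where its Benjamini-Hochberg adjusted p over all genes tested was under 0.05. Levels given as CPM are from here on scaled by edgeR's TMM factors. Log2 fold changes are knockout minus wildtype, with their standard error (SE).

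Over all nuclei Sox5 was the 1 gene of the 6 called, where 5.26% of all 13927 genes tested were called in either direction and 1.67% were higher. Sox5 stood at 2336, 2480, 2892 and 2394 CPM in wildtype samples 1 to 4 and at 3138, 3551, 3726 and 3494 CPM in the knockout samples. Every knockout sample lay above every wildtype sample. The log2 fold change was 0.46 ± 0.08 (SE; edgeR adjusted p = 0.0142), a fold of 1.38. The call was lost without wildtype replicate 4 (edgeR adjusted p = 0.0574), without knockout replicate 2 (0.0536) and without knockout replicate 3 (0.0621).

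Fezf2 (log2 fold change 0.38 ± 0.10, edgeR adjusted p = 0.0520) and Tbr1 (0.28 ± 0.08, 0.0690) missed the threshold over all nuclei. With the replicate number as a block Fezf2 passed (edgeR adjusted p = 0.0127). DESeq2 called both, with adjusted p = 0.00875 for Fezf2 and 0.0201 for Tbr1. Ldb2 (-0.09 ± 0.10), Tle4 (-0.10 ± 0.12) and Foxp2 (0.00 ± 0.08) had edgeR adjusted p-values from 0.667 to 0.996. In whole samples, a change in the number of cells of a type and a change per cell cannot be told apart, so the clusters were compared one by one.

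Over the 7 clusters there were 42 comparisons of a gene in a cluster, of which edgeR called 11, and all 11 were increases in the knockout. Per cluster, 0.779% to 9.11% of all genes tested were called, and 0.352% to 3.92% were called higher. The 42 comparisons share the same 8 samples and are not independent. Sox5 rose in 5 clusters, Fezf2, Foxp2 and Tbr1 in 2 each. Ldb2 and Tle4 were called by edgeR in 0 of 7 clusters, and by DESeq2 in 0. At an unadjusted edgeR p under 0.05 Ldb2 had 1 cluster and Tle4 had 2.

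**Figure D2:**
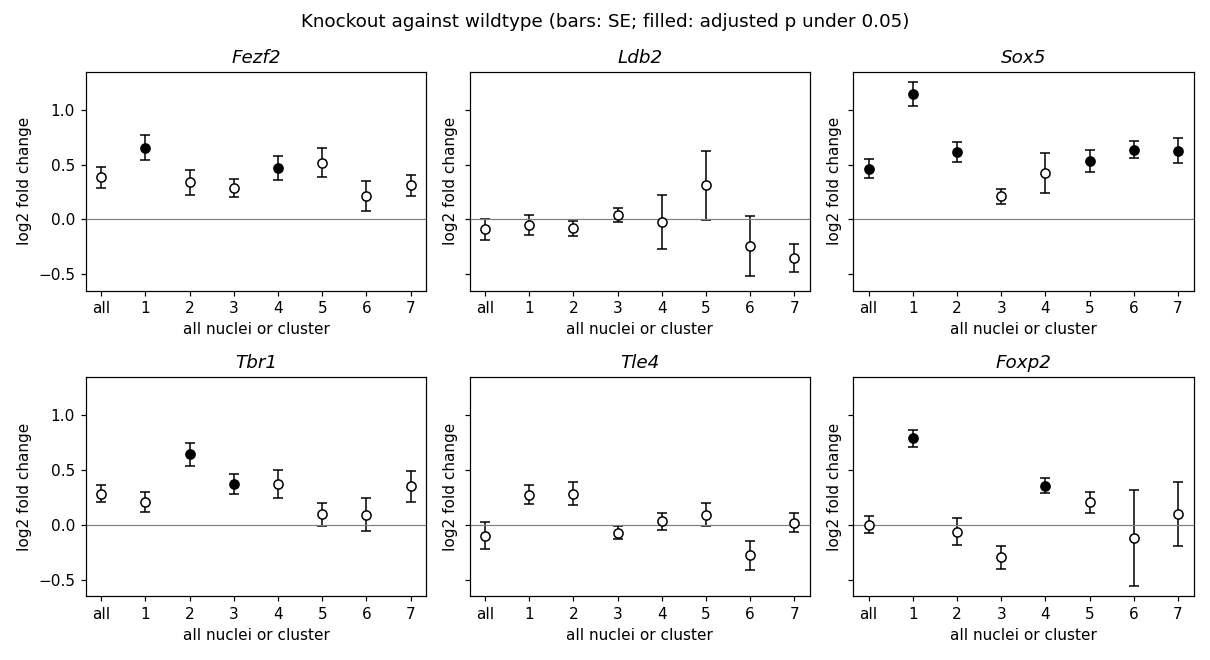
Log2 fold change of each gene, knockout minus wildtype, over all nuclei and within clusters 1 to 7 (points are edgeR estimates, bars are the SE, filled points have an adjusted p under 0.05, n = 4 samples per group). The Sox5 estimates lie between 0.21 and 1.14 in the clusters, and no filled point lies below 0.

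Sox5, Foxp2 and Fezf2 had their largest increases in the upper-layer-like cluster 1. Of the 6 genes 3 were called there, against 4.84% of all genes tested (2.54% higher in the knockout). Sox5 stood at 1207, 1593, 1386 and 1278 CPM in wildtype and 3187, 3400, 3151 and 2307 CPM in knockout samples. The groups were far apart, and the log2 fold change was 1.14 ± 0.11 (edgeR adjusted p = 3.16e-05), a fold of 2.20.

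Foxp2 rose in cluster 1 from 91.4, 102, 86.5 and 82.2 CPM to 163, 162, 155 and 143 CPM, again with no overlap. Its log2 fold change was 0.79 ± 0.08 (edgeR adjusted p = 2.69e-05). In raw CPM the knockout mean in cluster 1 was 154, against wildtype means of 358 in cluster 2 and 1079 in cluster 3.

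Fezf2 rose in cluster 1 from 48.6, 42.5, 59.3 and 40.6 CPM to 82.5, 72.6, 78.8 and 65.7 CPM. The log2 fold change was 0.65 ± 0.11 (edgeR adjusted p = 0.00345). Tle4 had 0.27 ± 0.09 with an edgeR adjusted p of 0.105, which became 0.0123 with the replicate block. Tbr1 (0.21 ± 0.09) and Ldb2 (-0.05 ± 0.09) were not called. The 3 increases in cluster 1 kept their call in all 14 alternatives run, from other scalings to each left-out sample.

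From a list of genes of layer 5 and subcerebral neurons 13 were tested in cluster 1, and 2 rose and 1 fell. Bcl11b, a zinc-finger factor of subcerebral neurons, rose by a log2 fold change of 0.74 ± 0.11 (edgeR adjusted p = 8.48e-04), Cdh13, a cadherin, rose by 0.92 ± 0.09 (3.23e-05), and S100a10, a calcium-binding family protein, fell by 1.68 ± 0.23 (5.65e-04). S100a10 also fell over all nuclei and in every other cluster, the progenitor-like ones included, so its fall was not particular to cluster 1. The list median was -0.08, against 0.00 for all genes. From the corticothalamic and layer 6 list 3 of 10 rose and 1 fell (median 0.28). From the callosal and upper-layer list 4 of 9 fell (median -0.24). Cux1, a homeodomain factor of upper layers, fell by 0.81 ± 0.10 (edgeR adjusted p = 3.10e-04).

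Of 10 lists of cell type markers 4 had sums that did not overlap between genotypes in cluster 1, and 6 overlapped. The deep-layer list, which holds the 6 genes, was 1 of the 4. The 5 upper-layer markers counted summed to 1696 to 2049 raw CPM in wildtype and 1070 to 1320 in knockout samples. Subplate markers summed to 248 to 284 against 347 to 395, and the 8 interneuron markers counted to 54.1 to 99.5 against 32.4 to 48.4. Most of the subplate sum came from 1 gene, Tmem178, at 297 raw CPM as a mean over all 8 samples. None of the interneuron markers was at 0. The part of these shifts in the increases of Sox5, Foxp2 and Fezf2 was not tested.

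In cluster 2, where Fezf2, Ldb2 and Sox5 are high, Sox5 and Tbr1 rose. This made 2 called of 6, against 9.11% of all genes tested (3.92% higher). Sox5 went from 4369, 4509, 5385 and 4396 CPM to 6990, 7993, 7298 and 6236 CPM, with no overlap and a log2 fold change of 0.61 ± 0.09 (edgeR adjusted p = 8.28e-04). Tbr1 went from 50.6, 56.9, 60.1 and 52.6 CPM to 88.2, 99.6, 85.7 and 68.9 CPM, also with no overlap. Its log2 fold change was 0.64 ± 0.11 (edgeR adjusted p = 0.00173). In raw CPM Tbr1 averaged 85.2 ± 12.4 in knockout cluster 2 (SD, n = 4), beside 87.4 ± 7.0 in wildtype cluster 3 and 111 ± 12.7 in knockout cluster 3.

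The layer 5 genes Fezf2 and Ldb2 did not pass in cluster 2. Fezf2 stood at 119, 131, 174 and 122 CPM in wildtype and 188, 159, 180 and 163 CPM in knockout samples, with wildtype replicate 3 inside the knockout range. Its log2 fold change of 0.34 ± 0.11 had an edgeR adjusted p of 0.0859, which was 0.0335 with the replicate block and 0.00228 without wildtype replicate 3. Ldb2 stood between 1405 and 1569 CPM in wildtype and between 1296 and 1515 CPM in knockout samples (-0.08 ± 0.07, edgeR adjusted p = 0.584). Tle4 (0.28 ± 0.10, 0.129) and Foxp2 (-0.07 ± 0.12, 0.836) were not called either. Without wildtype replicate 3 Tle4 passed (edgeR adjusted p = 0.0137).

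The lists showed the same cluster from other sides. Of the callosal and upper-layer list 7 of 9 genes fell in cluster 2, with a median of -0.96 against 0.00 for all genes. Ptprk, a receptor phosphatase, fell by 2.04 ± 0.24 (edgeR adjusted p = 1.47e-04) and Plxna4, a semaphorin receptor, fell by 1.72 ± 0.24 (4.82e-04), as did Cux1 by 1.65 ± 0.23 (4.89e-04). Of the corticothalamic and layer 6 list 6 of 10 rose and 1 fell, with a median of 0.67. Nfia, a nuclear factor I gene, rose by 1.14 ± 0.13 (edgeR adjusted p = 1.50e-04) and Syt6, a synaptotagmin, by 1.10 ± 0.17 (0.00111), while Cdh18, a cadherin, fell by 2.52 ± 0.22 (1.71e-05). Of the layer 5 and subcerebral list 2 of 13 rose, Bcl11b and Cdh13, and 5 fell, S100a10, Ntng1, Diaph3, Etv1 and Crim1. The fall of S100a10 was found in every cluster. Upper-layer markers summed to 841 to 1245 raw CPM in wildtype and 589.9 to 745 in knockout samples of cluster 2, and subplate markers to 154 to 181 against 225 to 301. Rorb, which peaked in this cluster and not in cluster 1, gave most of that upper-layer sum, at 570 raw CPM as a mean over all 8 samples. Tmem178 gave most of that subplate sum, at 196 raw CPM as a mean over all 8 samples. Interneuron markers summed to 64.4 to 95.3 against 32.6 to 53.6, and 6 of the 10 marker lists overlapped. Their part in the Sox5 and Tbr1 results was not tested.

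In cluster 3, home of Tle4, Foxp2 and Tbr1, only Tbr1 was called of the 6 by edgeR, against 3.36% of all genes tested (1.48% higher). It stood at 76.3, 89.0, 89.4 and 92.4 CPM in wildtype and 115, 126, 116 and 93.4 CPM in knockout samples. Knockout replicate 4 sat just above the wildtype range, and in raw CPM it fell inside it (93.1 against a highest wildtype value of 94.1). The log2 fold change was 0.37 ± 0.09 (edgeR adjusted p = 0.0427), and the call was lost in 8 of 14 alternatives, with adjusted p up to 0.144 without knockout replicate 2. Those were every left-out sample but knockout replicate 4, and the removal of the highest doublet scores.

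Sox5 did not overlap between the groups in cluster 3, at 4963, 4943, 5254 and 4721 CPM against 5431, 6295, 6008 and 5276 CPM. The difference was small (log2 0.21 ± 0.07, edgeR adjusted p = 0.116) and passed with the replicate block (0.0228) and with Xist as a covariate (0.0156). Fezf2 likewise had 0.28 ± 0.08 (0.0953, and 0.0314 with the replicate block by edgeR). Tle4 stood at 3045, 3219, 3435 and 2868 CPM against 2827, 3030, 3058 and 3047 CPM, which overlapped (-0.07 ± 0.06, edgeR adjusted p = 0.678). Foxp2 stood at 1094, 971, 1101 and 1120 CPM against 685, 1077, 825 and 900 CPM (-0.30 ± 0.11, edgeR adjusted p = 0.181). Knockout replicate 2 lay within the wildtype range, and without it the difference was -0.41 (edgeR adjusted p = 0.0323).

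Of the corticothalamic and layer 6 list 2 of 10 rose in cluster 3, Nfia and Zfpm2, and 2 fell, Syt6 and Cdh18 (median 0.09). Syt6 fell there by 0.68 ± 0.12 (edgeR adjusted p = 0.00508), while it rose in cluster 2, and the interaction test described below called that difference. The 5 upper-layer markers summed to 703 to 811 raw CPM in wildtype and 609 to 751 in knockout samples of cluster 3, and subplate markers to 213 to 220 against 204 to 253, both with overlap. Most of that upper-layer sum was Rorb, at 502 raw CPM as a mean over all 8 samples. Of the 10 lists 3 did not overlap in cluster 3. Interneuron markers summed to 92.3 to 132 against 35.2 to 74.3, Cajal-Retzius markers to 30.2 to 38.8 against 41.7 to 52.0 and microglia markers to 5.32 to 6.72 against 3.22 to 4.62. The Cajal-Retzius sum was nearly all 1 gene, Reln, at 39.5 raw CPM as a mean over all 8 samples. The part of these 3 lists in the Tbr1 result was not tested.

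In the apical progenitor-like cluster 4 Foxp2 and Fezf2 rose, 2 of 6 against 4.29% of all genes tested (1.17% higher). Foxp2 went from 368, 383, 392 and 405 CPM to 503, 462, 495 and 522 CPM with no overlap (log2 0.36 ± 0.06, edgeR adjusted p = 0.00705), and this held in all 14 alternatives. Fezf2 went from 48.8, 51.2, 52.9 and 45.04 CPM to 79.8, 66.4, 69.4 and 55.7 CPM (log2 0.47 ± 0.11, edgeR adjusted p = 0.0310). That call was lost in 7 of 14 alternatives: without wildtype replicate 1, 2 or 4, without knockout replicate 1, 2 or 3, and without the highest doublet scores, with edgeR adjusted p up to 0.0996. Apical progenitor markers summed to 2707 to 3274 raw CPM in wildtype and 2297 to 2522 in knockout samples of this cluster. Subplate markers summed to 348 to 380 against 392 to 454, interneuron markers to 143 to 169 against 52.1 to 135 and microglia markers to 7.49 to 10.1 against 2.97 to 4.60, while the other 6 lists overlapped. The part of these shifts in the 2 increases was not tested.

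In the intermediate progenitor-like cluster 5 and in clusters 6 and 7, Sox5 was the 1 gene of 6 called each time, against 1.77%, 0.779% and 1.03% of all genes tested (0.868%, 0.352% and 0.578% higher). Its means rose from 1128 ± 66.7 to 1630 ± 281 CPM in cluster 5 (log2 0.53 ± 0.10, edgeR adjusted p = 0.0166). In cluster 6 wildtype samples held 1071, 1094, 1057 and 1063 CPM and knockout samples 1598, 1878, 1663 and 1514 CPM (0.64 ± 0.08, edgeR adjusted p = 0.00140). In cluster 7 wildtype samples held 1346, 1354, 1439 and 1218 CPM and knockout samples 1921, 2284, 2486 and 1568 CPM (0.62 ± 0.11, edgeR adjusted p = 0.0116). The groups overlapped in none of the 3. The cluster 6 call held in all 14 alternatives. In cluster 5 it was lost without wildtype replicate 2 (edgeR adjusted p = 0.0669) or 4 (0.0628), and in cluster 7 without wildtype replicate 4 (0.0639) or knockout replicate 2 (0.0620). Ldb2 in cluster 7 (-0.35 ± 0.13, edgeR adjusted p = 0.349) passed only with the replicate block (-0.36, 0.0125).

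Subplate marker sums did not overlap between genotypes in these 3 clusters, at 353 to 398 raw CPM in wildtype against 434 to 450 in knockout samples of cluster 5, 154 to 188 against 210 to 264 in cluster 6 and 309 to 332 against 389 to 404 in cluster 7. Most of each sum was 1 gene, Tmem178, at 325, 185 and 333 raw CPM in clusters 5, 6 and 7 as means over all 8 samples. In cluster 5 upper-layer markers (1300 to 1599 against 1072 to 1281), striatal-type markers (3299 to 4018 against 2712 to 3176) and Cajal-Retzius markers (58.0 to 96.6 against 116 to 139) did not overlap either, nor did striatal-type markers in cluster 7 (759 to 862 against 641 to 744). The striatal-type sums were mostly 1 gene, Meis2, at 3106 raw CPM in cluster 5 and 702 in cluster 7 as means over all 8 samples. The Cajal-Retzius sum in cluster 5 was nearly all 1 gene, Reln, at 96.5 raw CPM as a mean over all 8 samples. The deep-layer list, which holds Sox5, also separated in all 3 clusters. The part of the other lists in the Sox5 increases was not tested.

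Sox5 in cluster 4 was the exception to its separation of the groups. Knockout replicates 1 and 4 held 1275 and 1147 CPM, and knockout replicates 2 and 3 held 726 and 720 CPM, inside the wildtype range of 609 to 851 CPM (0.42 ± 0.18, edgeR adjusted p = 0.268). Ldb2 split the same samples in cluster 5, with 178 and 148 CPM in knockout replicates 1 and 4 and 58.5 and 53.9 CPM in replicates 2 and 3. Knockout replicates 1 and 4 had 0 Xist UMIs and replicates 2 and 3 had 128 and 85. Ldb2 in cluster 4 split them likewise, with 144 and 177 CPM in knockout replicates 1 and 4 and 79.2 and 69.4 CPM in replicates 2 and 3. Wildtype replicate 4, also with 0 Xist UMIs, lay within the range of the other wildtype samples in the first 2 cases, and above it for Ldb2 in cluster 4 (135 CPM against 105 to 121).

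The size of the genotype difference itself was compared between clusters with an interaction term, which tests whether the knockout shift in one cluster is larger than in another. Between clusters 2 and 3, 3 of the 6 genes differed, against 5.52% of all genes tested (2.59% with a larger value in cluster 2). The Sox5 shift was larger in cluster 2 by 0.41 ± 0.05 on the log2 scale (edgeR adjusted p = 6.37e-06), and the Tle4 shift by 0.37 ± 0.06 (4.32e-04). Both held in all 12 alternatives. The Tbr1 shift was larger by 0.27 ± 0.08 (edgeR adjusted p = 0.0363), which was lost in 9 of 12 alternatives, 7 of them with 1 sample left out (all but wildtype replicate 3) and up to an adjusted p of 0.762 with DESeq2. Foxp2 (0.24 ± 0.07, edgeR adjusted p = 0.0518) just missed.

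Between clusters 2 and 1, 4 of the 6 differed, against 3.5% of all genes tested (1.23% larger and 2.26% smaller in cluster 2). The shift was smaller in cluster 2 for Foxp2, by -0.84 ± 0.12 (edgeR adjusted p = 1.08e-04), and for Sox5, by -0.52 ± 0.08 (3.46e-04), both in all 12 alternatives. Fezf2 differed by -0.33 ± 0.08 (edgeR adjusted p = 0.0252, lost in 8 of 12 alternatives) and Tbr1 by 0.44 ± 0.11 (0.0159, lost in 5 of 12). The Sox5 difference thus went from 1.14 in the upper-layer-like cluster 1 to 0.61 in cluster 2 and 0.21 in cluster 3, and both steps passed the test.

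At the level of single nuclei, Sox5 was found in nearly all knockout nuclei of cluster 2. To compare at equal depth, 1400 UMIs were drawn at random from every nucleus. A Sox5 UMI was then found in 91.4% ± 2.86 of wildtype and 99.3% ± 0.530 of knockout nuclei of cluster 2 (SD, n = 4), with no overlap between the groups. In cluster 1 the share went from 78.0% ± 2.92 to 93.3% ± 2.39, and in cluster 3 from 97.6% to 98.6%. Without thinning, the share of cluster 1 nuclei with 5 or more Sox5 UMIs was 27.8% ± 6.13 in wildtype and 67.4% ± 10.1 in knockout samples.

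Tle4 was found in more cluster 2 nuclei of the knockout (41.6% ± 1.63 against 32.6% ± 4.39), and Foxp2 in more cluster 1 nuclei (14.6% ± 1.26 against 9.06% ± 1.06). In cluster 3 the share with Foxp2 was 51.8% ± 4.63 in knockout and 58.3% ± 1.72 in wildtype samples. For comparison, the lowest share of wildtype nuclei with a Foxp2 UMI was 2.60% ± 0.730 in cluster 6 (median 2927 UMIs per nucleus, against 3040 in cluster 3), and for Ldb2 it was 6.28% ± 0.444 in cluster 5. Fezf2 and Tbr1 never reached high shares: in their top clusters they were found in 17.1% ± 2.30 (cluster 2) and 11.6% ± 1.08 (cluster 3) of wildtype nuclei, against a lowest share of 5.14% ± 0.744 in cluster 6 and 4.06% ± 0.874 in cluster 4.

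Over all nuclei the share with a UMI after thinning differed by 7.56 percentage points for Sox5 and 3.06 points for Fezf2, higher in 4 of 4 knockout samples than in any wildtype sample (exact two-sided permutation test, p = 0.0286 each). Foxp2 (3.22 points) and Tbr1 (1.52 points) had p = 0.0571 in the exact permutation test. These are 2 of 6 tests with an unadjusted p under 0.05. With 70 arrangements of 8 samples the smallest p of the exact permutation test is 0.0286, and 4 of the 6 would have had to reach it for any to pass an adjustment.

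The number of the 6 genes found in a nucleus shifted up in clusters 1 and 2. Nuclei with none made up 10.5% ± 2.18 of wildtype and 2.94% ± 0.638 of knockout cluster 1 nuclei, and 2.10% ± 1.14 against 0.165% ± 0.0798 in cluster 2 (SD, n = 4, no overlap in either). In cluster 1 the most common number was 1 in the wildtype (44.4%) and 2 in the knockout (41.6%). In cluster 3 both genotypes peaked at 3 genes, with 41.7% ± 1.43 and 42.3% ± 2.16. Sox5 is 1 of the 6, and its own share went from 78.0% to 93.3% in cluster 1 and from 91.4% to 99.3% in cluster 2. The mean share with Ldb2 was lower in the knockout in both clusters. The shares by number of genes were described and not tested, nor was the part of Sox5 in them.

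**Figure D3:**
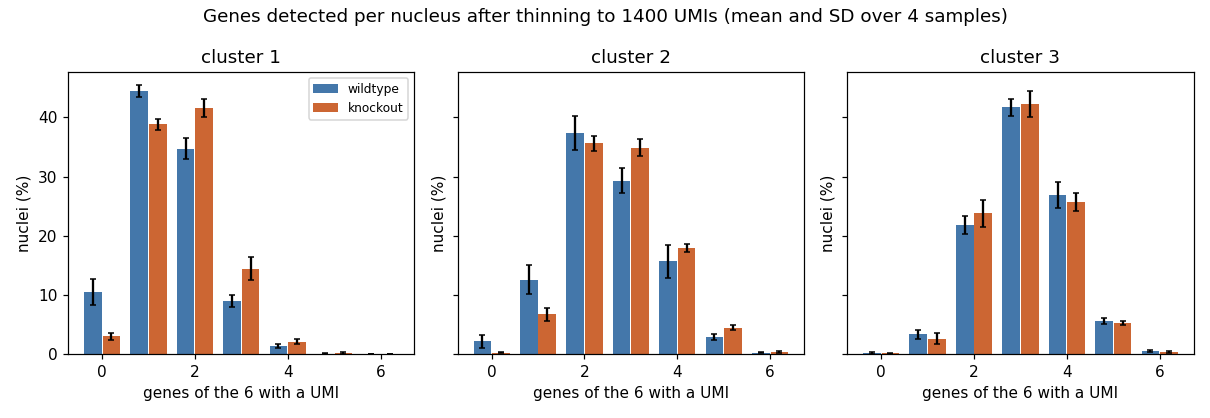
Share of nuclei (%) by the number of the 6 genes with at least 1 UMI after thinning to 1400 UMIs, in clusters 1, 2 and 3 (bars are means over 4 samples, error bars are the SD, blue wildtype, orange knockout). The knockout bars are shifted to the right in cluster 1, less so in cluster 2, and coincide with the wildtype bars within error in cluster 3.

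Co-detection asked whether a nucleus with 1 gene is more or less likely to hold another. It was measured per sample as the log2 odds ratio of finding both, where 0 is independence. A small constant was added to each count of nuclei, and it weighs on the ratio where a count is near 0. Detection is shared by all nuclei of a library, and thinning was used to hold depth constant. The corticothalamic pair Tle4 and Foxp2 was found together more often than independence gives in all 3 neuronal clusters of the wildtype, with a log2 odds ratio of 1.00 ± 0.28 in cluster 1, 1.67 ± 0.38 in cluster 2 and 1.81 ± 0.46 in cluster 3 (SD, n = 4). In cluster 3, 55.2% of wildtype nuclei held both.

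Ldb2 and Tle4 went the other way, at -1.04 ± 0.33 in cluster 1 and -1.0 ± 0.23 in cluster 3, with all wildtype samples below 0. In cluster 2 the value was -0.13 ± 0.28 in the wildtype and -0.63 ± 0.27 in the knockout (exact permutation p = 0.0571). Ldb2 and Foxp2 had -0.78 ± 0.39 in cluster 1 but -0.02 ± 0.09 in cluster 2. In clusters 1 and 3 the odds of finding Ldb2 were thus lower in nuclei with Tle4 than in those without, in 4 of 4 wildtype samples.

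The log2 odds ratio of Sox5 in wildtype cluster 2 was 2.91 ± 0.61 with Foxp2, 2.40 ± 0.18 with Tle4, 1.33 ± 0.36 with Fezf2, 0.85 ± 0.64 with Ldb2 and 0.56 ± 1.11 with Tbr1. Differences between these pairs were not tested. In the knockout the values with Foxp2 and Tle4 were 1.98 ± 0.41 and 1.49 ± 0.92, and 99.3% of knockout nuclei of cluster 2 held Sox5. Only 0.0328% of those nuclei held Foxp2 without Sox5, and 0.151% held Tle4 without Sox5. The knockout values thus depend on the added constant, and no weaker co-detection can be read from them. Fezf2 and Tbr1, which act against each other in layer fate, had wildtype values of -0.02 ± 0.44, 0.33 ± 0.50 and -0.13 ± 0.48 in clusters 1, 2 and 3. In each the SD was larger than the distance of the mean from 0, so independence was neither shown nor excluded. Both genes gave few UMIs, and 246 nuclei of cluster 2 over all samples held both.

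None of the 45 genotype differences in co-detection passed after adjustment (lowest adjusted p = 0.482, exact permutation test over 8 samples), and 1 had an unadjusted p under 0.05. That was Ldb2 with Sox5 in cluster 1, at 0.04 ± 0.18 in wildtype and 1.23 ± 0.65 in knockout samples (exact permutation p = 0.0286). At the smallest p of 0.0286, 26 of the 45 tests would have had to reach it for any to pass.

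**Figure D4:**
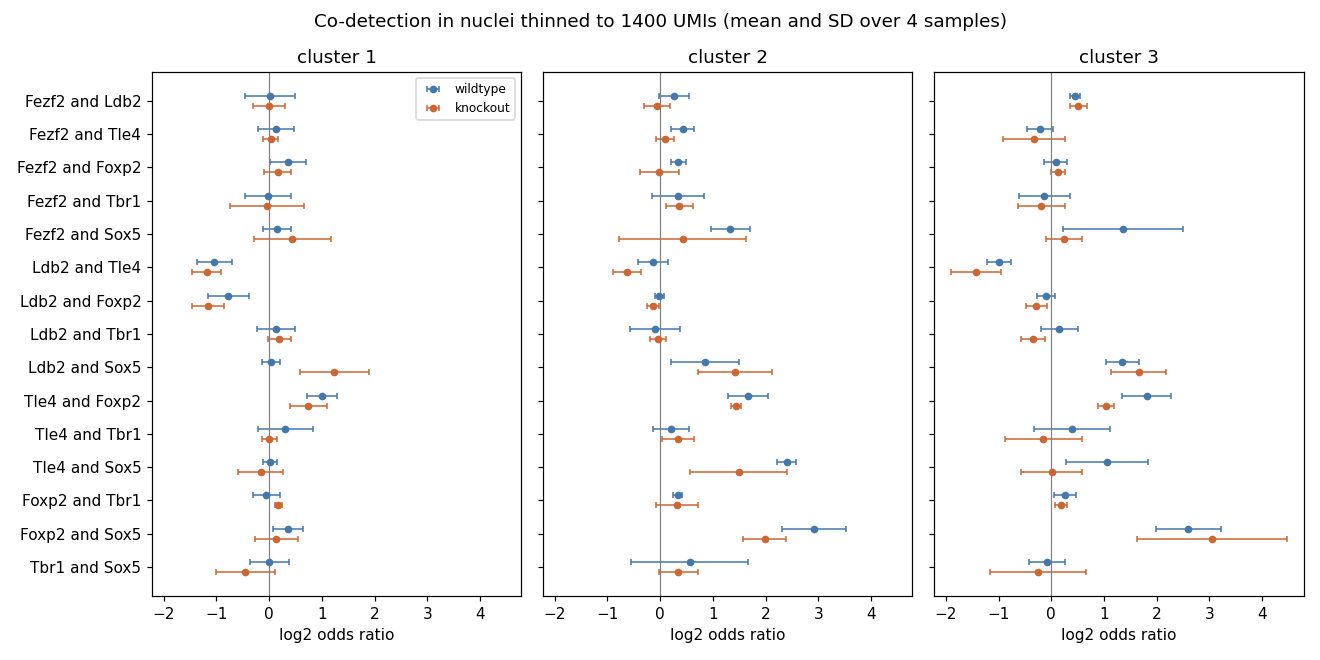
Log2 odds ratio of finding 2 genes in the same nucleus, for the 15 pairs in clusters 1, 2 and 3 (points are means over 4 samples, bars are the SD, blue wildtype, orange knockout, 0 is independence). Tle4 with Foxp2 lies right of 0 in all 3 clusters, Ldb2 with Tle4 lies left of 0 in clusters 1 and 3, and pairs with Fezf2 or Tbr1 mostly lie near 0.

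Paralogs and partners of the 6 genes gave a further view. Of 15 tested over all nuclei 2 rose, both forkhead genes close to Foxp2. Foxp1 rose in cluster 1 (0.62 ± 0.07, edgeR adjusted p = 8.22e-05), cluster 3 (0.50 ± 0.08, 0.00329), cluster 4 (0.64 ± 0.07, 4.12e-04) and cluster 5 (0.50 ± 0.08, 0.00531). Foxp4 rose in cluster 1 (0.48 ± 0.08, edgeR adjusted p = 0.00297) and cluster 4 (0.70 ± 0.09, 9.61e-04). Lmo1 and Lmo3, LIM-only proteins of the kind that LIM-binding cofactors hold, rose in cluster 2 by 0.41 ± 0.09 (edgeR adjusted p = 0.0119) and 0.51 ± 0.09 (0.00316), and Lmo1 also rose in clusters 1 and 3. The list medians were 0.20 over all nuclei, 0.18 in cluster 1 and 0.18 in cluster 2, against 0.00 for all genes.

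Of the genes within 2 Mb of the 6 on the chromosome, 3 of 84 tested were called over all nuclei (3.57%, against 5.26% of all genes) and 7 of 66 in cluster 2 (10.6%, against 9.11%). Within 2 Mb of Sox5, 1 of 27 tested genes was called over all nuclei, Arntl2, and it was lower in the knockout. Within 2 Mb of Fezf2, Cadps, a gene of vesicle release, rose over all nuclei and in clusters 1, 2, 4 and 7, out of 8 to 10 neighbours tested. In cluster 2, 2 of 7 tested neighbours of Foxp2 were called, Gpr85 and 1110019D14Rik, and 2 of 10 of Tbr1, Rbms1 and Kcnh7.

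For each gene the 3 genes with the most similar pattern were taken from 8950 genes by Pearson's r over the 28 wildtype sums of a sample and cluster, which share libraries and cluster structure. For Sox5 these were Dync1i1 (r = 0.97), Tmem108 (0.94) and Smarca2 (0.92). For Ldb2 they were Ccbe1 (0.98), Gm30382 (0.96) and Ndrg1 (0.95), and for Tle4 Cobll1 (0.96), Mgll (0.95) and Hs3st3b1 (0.95). For Fezf2 they were Nlgn1 (0.92), Sh3bp4 (0.89) and Iqschfp (0.87). Foxp2 was nearest to Cdh6 (0.88), Cd47 (0.87) and Rfx7 (0.86), and Tbr1 to Kcng1 (0.89), Stac2 (0.89) and Hs3st5 (0.88). Over the 28 knockout sums the lowest of these 18 values was 0.71, for Fezf2 with Nlgn1. Among the 6 themselves the closest wildtype pair was Ldb2 and Sox5 (r = 0.85) and the least alike was Ldb2 and Foxp2 (0.11).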

How the data were processed

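Nuclei were counted with kallisto and bustools and the build mm10, per the submitters' processing notes, which give no versions. The deposited values are UMI counts by the authors per gene and nucleus, raw whole numbers by the column names and values of the tables. The authors also deposited a cluster number and doublet scores for each nucleus. The highest hybrid doublet score is 0.49995, so nuclei with higher scores are not in the tables used here, and no doublet caller was run. Deposited gene positions differ from GENCODE M21 on GRCm38 and were not printed.

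Counts were summed per sample, and per sample and cluster, and tested with edgeR 4.0.16 in R 4.3.3 (TMM, filterByExpr, glmQLFit, glmQLFTest, Benjamini-Hochberg over all genes tested, genotype as the only term). The interaction fits had the sample as a block. Shares and log2 odds ratios were tested with two-sided exact permutation tests (70 arrangements of 8 samples, scipy 1.17.1). On simulated counts where 200 genes were given a log2 change of 1, 97% were recovered over all nuclei (13928 genes), 85% to 90.5% in the clusters and 63% to 64% in the interaction fits. These fits also called 4 to 12 unchanged genes. The counts were drawn with a fixed dispersion, and the changed genes were not taken from the sparsest. Recovery of changes under a log2 of 1, as most of those reported here are, was not tested. DESeq2 1.42.0, other scalings and filters, left-out samples and left-out nuclei with the highest doublet scores were alternatives.

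The labels give both groups replicate numbers 1 to 4. Across genes, samples of equal number deviated together from their group means, with correlations of 0.398, 0.185, 0.192 and 0.179, all over 0.1. Different numbers gave -0.356 to 0.287. The highest of these, wildtype replicate 3 with knockout replicate 4, exceeded every same-number value but 0.398. Pairing by number, the replicate block, was run as an alternative only. The main fits and permutation tests did not use it, so the calls are those of unpaired comparisons. Nothing in the labels says what a number marks or that samples came from separate embryos, so p-values measure the spread between these samples.

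The genes, the lists and the tests were chosen with earlier results of these data known. Besides the 6 genes, list genes were named where edgeR called them, samples averaged at least 10 UMIs and the groups did not overlap, taking up to 3 per list, direction and fit by size of change. For each of the 6 genes the 3 most similar genes by Pearson's r were named as well. Of 66 list genes 58 are in the table, and 1 further gene of the lists is not reported here. Diaph3 and Etv1 were named to complete a count, and the genes near the 6 after their values were seen.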

Additional observations from a re-analysis of the deposited data

Results flagged for a closer look

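Tbr1 in cluster 5 stood at 68.05 raw CPM in wildtype replicate 4, apart from the other wildtype samples at 51.6 to 53.9. It was the 1 sample to stand apart by Dixon's criterion in 84 groups of 4 screened, and chance sets apart about 1 group in 20.

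In 7 cases the knockout difference of a gene was not the same in 2 clusters, by the interaction test of edgeR. In cluster 2 against cluster 3 it was larger by 0.41 for Sox5, 0.27 for Tbr1 and 0.37 for Tle4 on the log2 scale. In cluster 2 against cluster 1 it was different by -0.33 for Fezf2, -0.84 for Foxp2, -0.52 for Sox5 and 0.44 for Tbr1. The Tbr1 and Fezf2 cases are the ones lost in several alternatives, as given with their adjusted p-values above. The marker sums of upper-layer neurons did not overlap between genotypes in clusters 1 and 2 (1696 to 2049 against 1070 to 1320 and 841 to 1245 against 589.9 to 745 raw CPM), and their part in these differences was not tested. Most of the cluster 2 sum was 1 gene, Rorb, which peaked in cluster 2.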

How the results depend on the processing

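Of the 11 increases called within clusters, 7 kept their call in every alternative run: 3 in cluster 1 (Fezf2, Foxp2, Sox5), Tbr1 and Sox5 in cluster 2, Foxp2 in cluster 4, Sox5 in cluster 6. The cause of the changes below was not tested. With the replicate block (pairing by number), 2 of the 6 genes were called over all nuclei, 3 in cluster 3 and 2 in cluster 7, and all genes called numbered 1344 over all nuclei (732 without the block), 652 for cluster 3 (400), 253 for cluster 6 (82) and 255 for cluster 7 (109). Foxp2 over all nuclei turned to -0.000645 under it. In co-detection and shares swapping genotypes within numbers cannot give a p under 0.125.

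DESeq2 called 3 of the 6 genes over all nuclei (1215 genes in all), 2 in cluster 5, 2 for cluster 2 minus cluster 1 (210 genes against 422) and 342 genes against 672 for cluster 2 minus cluster 3. Without the highest doublet scores 0 of the 6 were called in cluster 3 and 1 in cluster 4. Xist as a covariate gave 2 in cluster 3, Foxp2 at -0.00279 over all nuclei and Ldb2 at -0.00605 in cluster 5. As a mean over nuclei the wildtype level of Ldb2 in cluster 5 was 67.5 and that of Sox5 in cluster 6 was 1032 raw CPM. Without the highest doublet scores Ldb2 stood at 83.1 in cluster 4 and 45.4 in cluster 5, and Sox5 at 591 in cluster 4, 1035 in cluster 5 and 1029 in cluster 6.

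Leaving out each sample in turn gave these ranges for members called: 0 to 2 over all nuclei, 2 to 4 in cluster 2, 0 to 1 in cluster 3, 1 to 2 in cluster 4, 0 to 2 in cluster 5, 0 to 1 in cluster 7 and 2 to 4 for cluster 2 minus cluster 1. All genes called ranged from 263 to 994 over all nuclei, 335 to 647 in cluster 1, 192 to 438 in cluster 3, 316 to 534 in cluster 4, 101 to 189 in cluster 5, 51 to 148 in cluster 6 and 63 to 142 in cluster 7. Uncalled differences that changed sign ranged from -0.0449 to 0.0421 (Foxp2, all nuclei), -0.195 to 0.0271 (Foxp2, cluster 2), -0.91 to 0.19 (Foxp2, cluster 6), -0.21 to 0.32 (Foxp2, cluster 7), -0.118 to 0.0250 (Ldb2, cluster 1), -0.27 to 0.16 (Ldb2, cluster 4), -0.0611 to 0.553 (Ldb2, cluster 5), -0.0115 to 0.0818 (Tle4, cluster 4), -0.0331 to 0.0735 (Tle4, cluster 7), -0.0193 to 0.141 (Fezf2, cluster 2 minus cluster 3), -0.117 to 0.0508 (Ldb2) and -0.10 to 0.11 (Tle4), both for cluster 2 minus cluster 1. The share of nuclei with Ldb2 ranged from -2.78 to 0.574 points.

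Depth limits the sparse genes most: Fezf2 had as few as 38, Tbr1 37 and Foxp2 18 UMIs in a sample and cluster.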
